A study of Mus musculus with 2 samples.

Results

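Accessible chromatin at the clustered protocadherin genes was examined in stomach tissue of newborn B6NCrl mice (postnatal, 0 day), from DNase-seq of 1 group of 2 biological replicates with 1 library each. DNase-seq maps the stretches of chromatin that the nuclease DNase I can cut, which include most active promoters and enhancers. No treatment or genotype was compared and there is no second group, so the data answer where the gene clusters are accessible in this tissue and not how accessibility differs between conditions. Both libraries carry the same donor label and the sex was not collected. The labels do not say whether the replicates came from separate animals, so the spread between them may be technical.

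The members were the protein-coding genes of the GENCODE M21 annotation on chromosome 18 (mm10) whose symbol marks them as Pcdha, Pcdhac, Pcdhb, Pcdhga, Pcdhgb or Pcdhgc genes, which gave 57 genes of 21938 protein-coding genes on the autosomes, X and Y. They comprise 14 Pcdha genes (12 numbered genes and the C-type genes Pcdhac1 and Pcdhac2), 22 Pcdhb genes and 21 Pcdhg genes (12 of type A, 6 of type B and 3 of type C). The annotation lists the gene at the position of Pcdha10 under the symbol Pcdha11, and it is called Pcdha10 here after its position in RefSeq. Each member begins with a large variable exon of its own, and a member was called accessible where a region shared by both replicates, that is peaks that overlap by 1 bp or more, lay within 1 kb of the start of that exon.

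Clustered protocadherins are cell-surface adhesion proteins with extracellular cadherin repeats that bind identical copies on neighbouring cells. In neurons each cell uses its own small choice of them, which gives it a molecular identity and lets its branches avoid each other. Every variable exon has its own promoter. A Pcdha or Pcdhg variable exon is spliced to constant exons that all genes of that cluster share, whereas Pcdhb genes have no constant exons. In neurons, promoter choice has been tied to CTCF and cohesin, which loop promoters to distant enhancers, and to DNA methylation. The C-type genes are less subject to the random choice.

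The clusters were accessible mainly in their gamma portion. A shared region lay at the variable exon start of 11 of the 57 members, against 61.9% of all protein-coding genes measured the same way. Of the 11, 9 were Pcdhg genes (of 21), 1 was a Pcdha gene (of 14) and 1 a Pcdhb gene (of 22). A peak of replicate 1 lay at 14 members and one of replicate 2 at 19, against 63.6% and 64.8% of all protein-coding genes. With hotspots, a second kind of interval deposited beside the peaks, the count of members with a shared interval was again 11. The share was 62.4% over all protein-coding genes. Some hotspots were narrower than the peaks, such as that of 67 bp at Pcdhb17 in replicate 2. Each of the 57 variable exon starts is also a transcript start. The share of all genes was 66.5% when any annotated transcript start of a gene was allowed to count.

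In 35 members neither replicate had a peak. The 3 members with a peak in replicate 1 alone were Pcdha9, Pcdhb12 and Pcdhga4. The 8 members with a peak in replicate 2 alone were Pcdha3, Pcdha5, Pcdhb22, Pcdhga2, Pcdhga3, Pcdhga6, Pcdhgb5 and Pcdhgb7. The number of reads per library is unknown, and the list of replicate 2 is the longer one, with 152779 peaks against 139374 in replicate 1. A start without a peak is therefore one where no site was called at this depth. In a bulk tissue, accessibility in few cells and weak accessibility in many cells cannot be told apart.

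**Figure D1:**
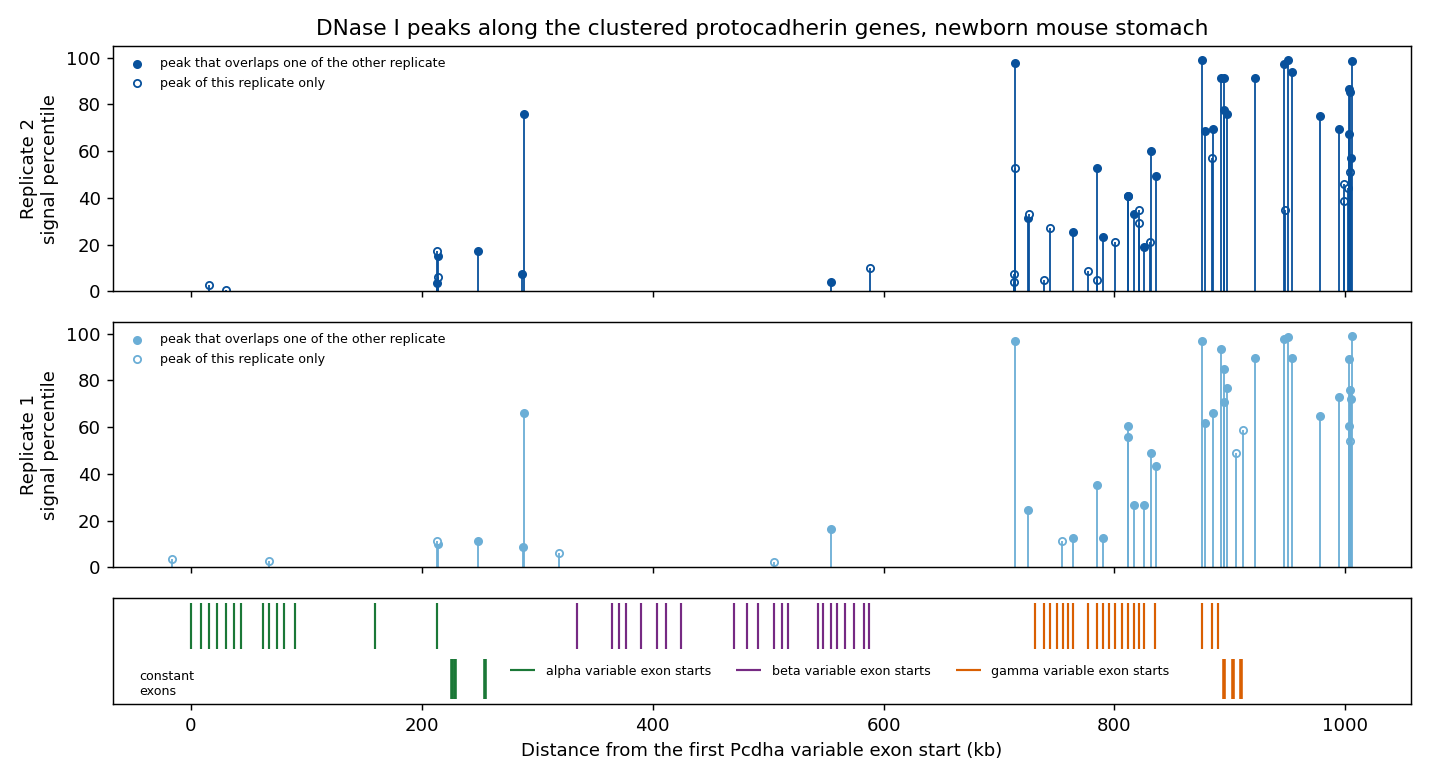
Peaks along the 3 clusters and their flanks in replicate 2 (top) and replicate 1 (middle), plotted by distance in kb from the first Pcdha variable exon start, with the height giving the percentile of the deposited signal within that replicate's list. Filled points overlap a peak of the other replicate, and the bottom track marks variable exon starts and constant exons; the 15 shared regions of the gamma cluster stand against 2 in the alpha cluster and 1 in the beta cluster.

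The Pcdha genes code for the alpha proteins, which at the surface travel together with beta and gamma proteins. None of the 12 numbered Pcdha genes had a shared region at its start. Pcdha3 had 1 peak in replicate 2 with a signal of 24 (percentile 2.87 within the list), and Pcdha5 had 1 in replicate 2 with a signal of 15 (percentile 0.634). At Pcdha9 the only peak was in replicate 1, with a signal of 14 (percentile 2.89). These 3 peaks are thus among the weakest of their lists. A percentile here is the position of a peak among all peaks of its own replicate, because the deposited signal has no stated unit or scaling and was not compared between replicates.

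The only accessible Pcdha member was Pcdhac2, a C-type gene known for the spacing of serotonergic axons in the brain. Its shared region at chr18:37143636-37143945 lay inside the variable exon, with its centre 287.5 bp past the start. The strongest peak of that region reached a signal of 23 (percentile 9.96) in replicate 1 and of 34 in replicate 2 (percentile 15.3). Around this start replicate 1 had 2 peaks, centred at -32.5 and 347.5 bp, and replicate 2 had 4, centred at -292.5, 207.5, 367.5 and 807.5 bp. The peaks upstream of the start did not overlap between replicates. The other C-type gene of the cluster, Pcdhac1, had no peak in either replicate.

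In the Pcdhb cluster 19 of the 22 genes had no peak in either replicate. Pcdhb17 (chr18:37484836-37485045) was the 1 with a shared region, with signal 27 (percentile 16.3) in replicate 1 and 26 in replicate 2 (percentile 4.09). The peak centres lay 175.5 bp and 115.5 bp past the start, inside the exon. Pcdhb22 had a peak in replicate 2 alone, with a signal of 31 and its centre 599.5 bp into the exon. Pcdhb12 had a peak in replicate 1 alone, with a signal of 13 (percentile 2.29) and its centre at -190.5 bp. The beta cluster, which is 259.5 kb long, held no other shared region, whether at starts, inside exons or between genes.

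Pcdhg genes make the gamma proteins, whose loss disturbs neuron survival and the self-avoidance of branches. A shared region lay at 5 of the 12 type A genes, 2 of the 6 type B genes and 2 of the 3 type C genes. For all protein-coding genes the share was 61.9%. Counting each replicate by itself, replicate 1 had a peak at 10 of the 21 (47.6%) and replicate 2 at 14 (66.7%), both counts including the 9 shared ones. Over all protein-coding genes the shares were 63.6% in replicate 1 and 64.8% in replicate 2. The Pcdhg genes were thus below that share in replicate 1 and near it in replicate 2. Either replicate had a peak at 15, and the 6 Pcdhg genes without any were Pcdhga1, Pcdhgb1, Pcdhgb2, Pcdhga8, Pcdhga9 and Pcdhgc5. In chromosomal order the first 6 Pcdhg genes had no shared region, and all 9 lay among the following 15, from Pcdhga5 onward. This split was seen in the data and was not tested.

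Among types A and B, Pcdhga7 (chr18:37714696-37714845) reached a signal of 36 (percentile 35.2) in replicate 1 and of 54 in replicate 2 (percentile 52.6). Pcdhga12 (chr18:37765816-37765965) had 40 in replicate 1 (percentile 43.4) and 52 in replicate 2 (percentile 49.4). Pcdhgb6 (chr18:37741956-37742125) had 50 in replicate 1 (percentile 60.4) and 47 in replicate 2 (percentile 40.7). These 3 were the strongest of the A and B types in both lists by percentile. Pcdhgb6 is also the only one of them that ranked higher in replicate 1 than in replicate 2.

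The other accessible type A and B genes lay in the lower part of both lists. The signal of Pcdhga10 (chr18:37746916-37747065) was 32 in replicate 1 (percentile 26.6) and 43 in replicate 2 (percentile 33.1). For Pcdhga11 (chr18:37755616-37755825) it was 32 in replicate 1 (percentile 26.6) and 36 in replicate 2 (percentile 19.2). The Pcdhga11 region also lay within 1 kb of a transcript start of the noncoding gene Gm26672. Pcdhga5 (chr18:37694256-37694445) and Pcdhgb4 (chr18:37720276-37720445) were alike, each with 25 in replicate 1 (percentile 12.7), and had 39 and 38 in replicate 2 (percentiles 25.2 and 23.2). At Pcdhg starts, peaks found in replicate 2 alone reached a similar range, from a signal of 27 at Pcdhga2 to 44 at Pcdhgb7. The single peak of replicate 1 at Pcdhga4 had a signal of 24.

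The C-type gene Pcdhgc3, which in mice promotes dendrite branching and whose protein binds the Wnt regulator Axin1, had the strongest peak of all members. Its shared region (chr18:37806236-37806405) reached a signal of 104 (percentile 96.8) in replicate 1 and of 121 in replicate 2 (percentile 98.9). Pcdhgc4, the gamma isoform tied to neuron survival, followed with a region at chr18:37815276-37815445. Its signal was 54 in replicate 1 (percentile 66.02) and 67 in replicate 2 (percentile 69.7). The third C-type gamma gene, Pcdhgc5, had no peak. Over both clusters that hold them, 3 of the 5 C-type genes were accessible (60%), a share near the 61.9% of all protein-coding genes.

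**Figure D2:**
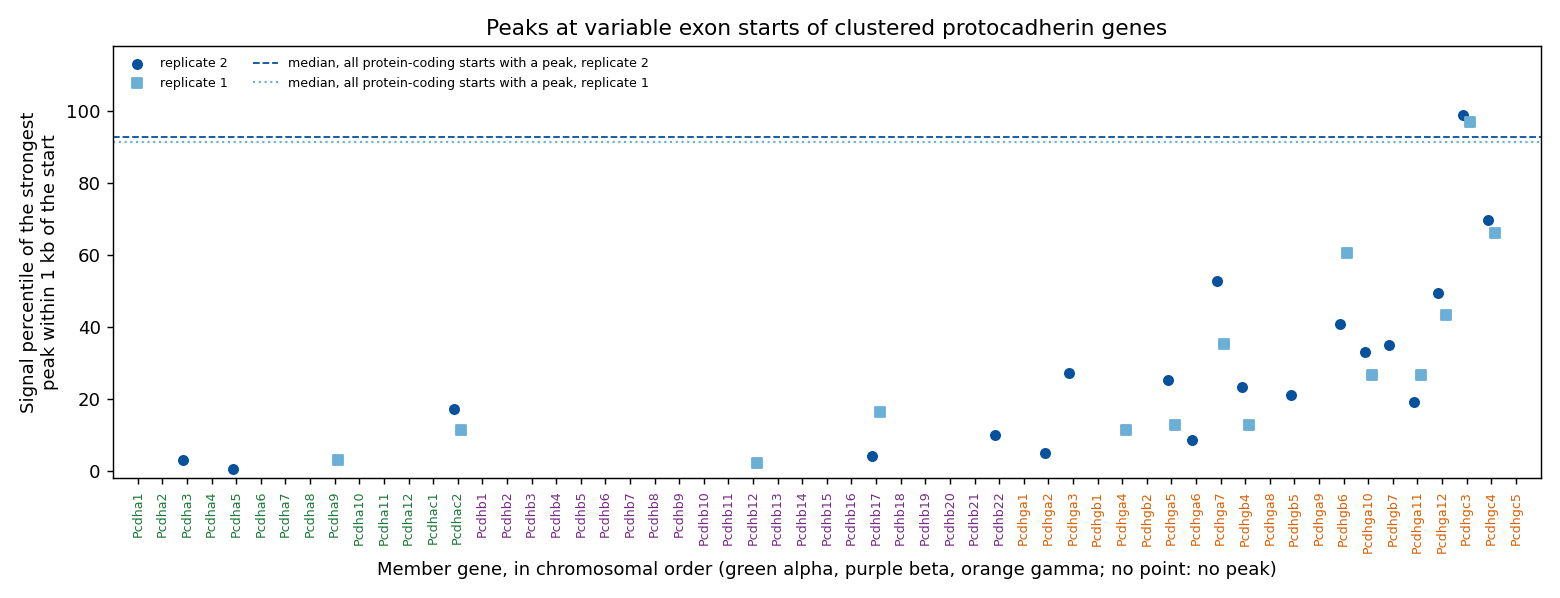
Percentile of the strongest peak within 1 kb of each variable exon start, by member in chromosomal order, with circles for replicate 2 and squares for replicate 1; members without a symbol had no peak. The dashed and dotted lines are the medians over all protein-coding starts with a peak (92.6 in replicate 2 and 91.5 in replicate 1), and only the symbols of Pcdhgc3 lie above them.

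Where members had a peak it was mostly a weak one. The median percentile over members with a peak was 21.4 in replicate 1 (14 members) and 23.2 in replicate 2 (19 members), against 91.5 and 92.6 over all protein-coding starts with a peak. Pcdhgc3 alone exceeded those medians. For hotspots the deposited measure is a -log10 q value, capped at 100, which stood at the cap in both replicates at Pcdhgb6 and Pcdhgc3. It reached the cap in replicate 2 alone at Pcdhga7 and Pcdhga12 and in replicate 1 alone at Pcdhb12. Signal and q value did not order the members alike. Pcdhgc4, second by signal, had a -log10 q of only 1.81 in replicate 1 and 1.96 in replicate 2, while Pcdhb12 reached 100 with a signal of 13. Such pairs occurred throughout the lists, since 36.6% of the replicate 1 peaks with a signal of 13 or less lay in a hotspot at 100, against 38.9% of all hotspots of that replicate.

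Peaks at Pcdhg starts sat close to the start of the exon. The centres of the strongest peaks lay within 200 bp upstream of the start at 5 of the 8 type A and B genes with a peak in replicate 1 and at 9 of the 12 in replicate 2. Over all members the median centre was at -9.5 bp in replicate 1 and -18.5 bp in replicate 2, against -33.5 bp over all protein-coding genes in both replicates. The count within 200 bp was not made for all protein-coding genes, so it does not mark this position as particular to the members. Pcdhga12 and Pcdhgc4 differed, with their shared regions inside the variable exon. At Pcdhga12 both replicates were centred at 310.5 bp. At Pcdhgc4 the centres were at 271.5 bp in replicate 1 and 291.5 bp in replicate 2. Replicate 2 had a second peak at Pcdhgc4, upstream at -188.5 bp, with a signal of 57 (percentile 57.1). Pcdhgc3, in contrast, was open just upstream, at -79.5 bp in replicate 1 and -99.5 bp in replicate 2.

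**Figure D3:**
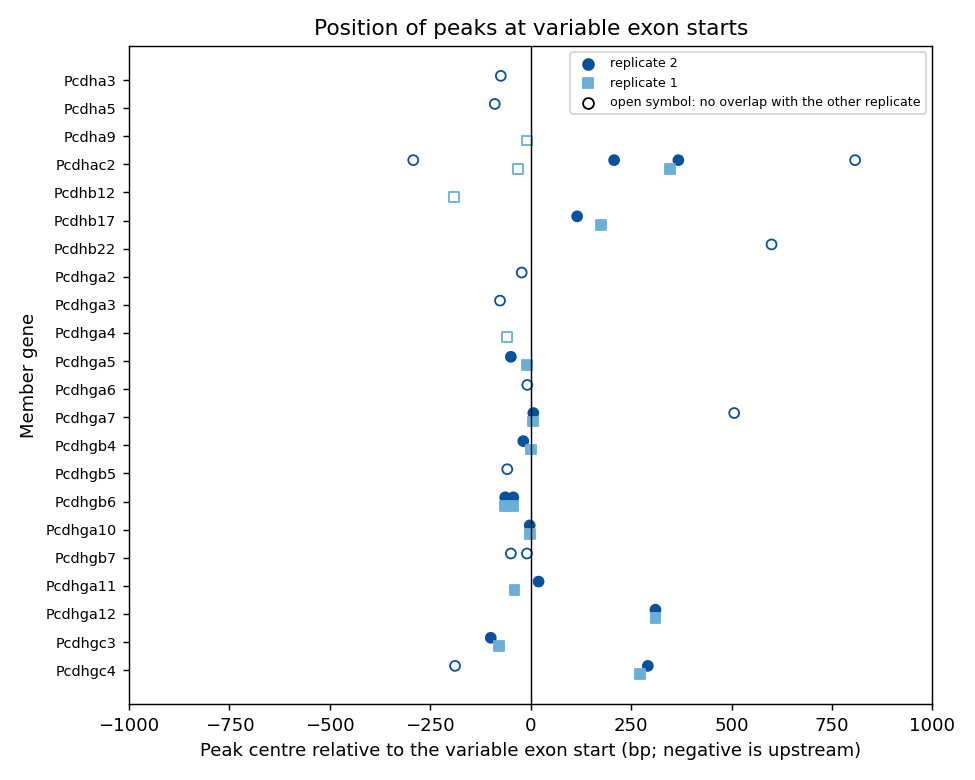
Centre of each peak within 1 kb of a member's variable exon start, in bp from that start with upstream negative, as circles for replicate 2 and squares for replicate 1; filled symbols overlap a peak of the other replicate. Most peaks of Pcdhg types A and B lie just upstream of the start, whereas those of Pcdhga12 (310.5 bp in both replicates) and the shared ones of Pcdhgc4 and Pcdhac2 lie inside the exon.

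The constant exons of the alpha cluster had no peak in either replicate. Of the 3 gamma constant exons, the first (chr18:37825021-37825079, 59 bp) was covered by a shared region with signal 58 (percentile 70.8) in replicate 1 and 75 in replicate 2 (percentile 77.7). Gamma constant exons 2 and 3 had none. The covered exon is part of a run of 4 shared regions between the end of the Pcdhgc5 variable exon and gamma constant exon 2, whose signals ranged from 58 to 93 in replicate 1 and from 73 to 96 in replicate 2. All 4 outranked the start regions of the type A and B genes in both lists. Of the 4, the region over the exon and the next one (chr18:37825376-37825545) lay within 1 kb of a transcript start of the noncoding gene Gm38182. A further region (chr18:37808876-37809025) lay at the end of the Pcdhgc3 variable exon, with 51 in replicate 1 and 66 in replicate 2. It was also within 1 kb of the start of the antisense gene BC037039. Accessibility does not show which gene such a site acts on.

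The density of shared regions in part repeats the counts at starts, because it includes those regions. The gamma cluster held 8.33 shared regions per 100 kb, the alpha cluster 0.777 and the beta cluster 0.385, against 3.67 on the whole of chromosome 18 and 3.87 over the genome. At variable exon starts lay 9 of the 15 regions of the gamma cluster, 1 of the 2 of the alpha cluster and the 1 of the beta cluster. Starts are also packed more closely in the gamma cluster, with 21 in 180.1 kb, against 14 in 257.5 kb for alpha and 22 in 259.5 kb for beta. The 100 kb past the last gamma constant exon held 11 shared regions, all within the gene Diaph1 or at its start. Diaph1 codes for an actin-nucleating formin and is transcribed toward the gamma cluster. In the 50 kb before Pcdha1 there was no shared region and 1 peak of replicate 1. Of the 33 shared regions from 50 kb before the clusters to 100 kb past them, 11 lay at variable exon starts, 1 over a constant exon, 1 inside a variable exon and 20 elsewhere.

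Between the alpha and beta clusters there were 2 shared regions, 29.7 and 30.7 kb past the third alpha constant exon. The second of them (chr18:37218296-37218445) was the strongest shared region from Pcdha1 to the beta cluster, with signal 54 (percentile 66.02) in replicate 1 and 73 in replicate 2 (percentile 75.9). The first (chr18:37217256-37217525) had 22 in replicate 1 and 29 in replicate 2. A weak region at chr18:37178456-37178605, between alpha constant exons 2 and 3 and at the start of the noncoding gene Gm10544, had 24 in replicate 1 and 35 in replicate 2. Enhancers of the alpha cluster are known in the mouse both among and downstream of the constant exons. No file used here gives their positions, so none of these regions was assigned to one.

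In the 137.3 kb between the beta and gamma clusters, the 2 shared regions lay at starts of other genes. The promoter of Taf7, a subunit of the general transcription factor TFIID, stood at 104 in replicate 1 and at 115 in replicate 2. The lincRNA 3222401L13Rik, just before Pcdhga1, had 31 in replicate 1 and 42 in replicate 2. Slc25a2, which codes for a mitochondrial carrier and lies beside Taf7, had no peak. Zmat2 before the clusters and Diaph1 after them both had a shared region at their start. The 3 predicted protein-coding genes that span the clusters (Gm37013, Gm37388 and Gm42416) had none. Pcdhgb8, annotated as a polymorphic pseudogene and hence no member, had a region upstream of its start with 43 in replicate 1 (percentile 49.0) and 59 in replicate 2 (percentile 59.9).

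In the downstream stretch, 8 shared regions within Diaph1 lay more than 1 kb from any annotated start. Their median signal was 83.5 in replicate 1 and 91.5 in replicate 2. The strongest of them (chr18:37880256-37880405), 38.5 kb past gamma constant exon 3, had 112 in replicate 1 (percentile 98.5) and 122 in replicate 2 (percentile 99.1). It thus ranked above Pcdhgc3, the strongest member, in both lists. Regions at chr18:37877336-37877505 and chr18:37883596-37883765 on either side of it had 108 and 84 in replicate 1, and 113 and 102 in replicate 2.

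Matches to the CTCF consensus, searched by a 12-letter form of it on both strands, were frequent near the starts of the alpha cluster. Within 1 kb of the start, 6 of the 14 Pcdha genes held an exact match, against 1.68% of all protein-coding genes. They were Pcdha1, Pcdha4, Pcdha6, Pcdha7, Pcdha8 and Pcdha12. All 6 matches were on the strand of the genes and lay inside the variable exon, between 537 and 581 bp past the start. Allowing 1 mismatch gave a match in 10 Pcdha genes, 1 Pcdhb gene and 2 Pcdhg genes, against 20.6% of all protein-coding genes. None of these matches lay under a peak of either replicate, and the 11 members with a shared region held no match within 1 kb of the start. The 6 Pcdha genes with an exact match had no peak at the start, so those matches had none to lie under. The gamma cluster, with most of the accessible members, held no exact match. The separation of matches from peaks is therefore not a result apart from the difference between the clusters.

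Further into the exons, 13 Pcdhb genes held an exact match on the strand opposite to the genes, between 2271 and 2810 bp past the start, and no Pcdhg variable exon held one. One of the 13 is Pcdhb17, whose shared region lies near its start. None of the 13 matches lay under a peak. Members of a cluster are copies of each other, so these matches share an origin and are not independent. Among the 33 shared regions, 2 held an exact match within 300 bp centred on the region (6.06%), against 5.45% of all shared regions of the genome. One was the first of the 2 regions past the alpha constant exons, and the other was the Diaph1 region at chr18:37883596-37883765. With 1 mismatch allowed 5 held a match (15.2%), against 17.2% of all shared regions. All of these were on the strand opposite to the genes, hence opposite to the 6 exact matches in the Pcdha exons. With 1 mismatch allowed, 3 members (Pcdhac1, Pcdhgb1 and Pcdhgb7) held a match near the start on the same strand as those of the regions. Another 10 members held one on the strand of the genes. The 13 exact matches further into the Pcdhb exons were on the strand of the region matches as well. A match is a run of letters and does not show that CTCF was bound.

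CpG content did not order the clusters the way accessibility did. The ratio of observed to expected CpG over the 2 kb around the start had a median of 0.641 for Pcdha, 0.334 for Pcdhb and 0.513 for Pcdhg genes, against 0.478 for all protein-coding genes. Of the 13 Pcdha genes with a ratio from 0.5 to 0.7, 1 was accessible, and so were 4 of the 9 Pcdhg genes in that range, against 90.4% of all protein-coding genes in it. Pcdhga10, Pcdhga11 and Pcdhgc3 had a ratio of 0.7 or more and were all accessible, against 95.1% of all genes there. Pcdha8, the 1 Pcdha gene in that range, had no peak. From 0.3 to 0.5, 1 of 14 Pcdhb genes and 2 of 8 Pcdhg genes were accessible, against 69.5% of all genes. Below 0.3 none of 9 members was, against 16.7%.

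Reads from near-identical copies can be lost in alignment, so the uniqueness of the sequence was measured beside accessibility. Of the 32-base strings in the 2 kb around the start, a median of 88.9% occurred once in the genome for Pcdha, 99.6% for Pcdhb and 97.7% for Pcdhg genes, against 98.4% over every 20th protein-coding gene. Members with a shared region had a median of 98.2% and members without any peak 92.2%. The range over members was 73.7 to 100%. Below 90% unique, 0 of 9 Pcdha, 0 of 7 Pcdhb and 1 of 4 Pcdhg genes were accessible, the 1 being Pcdhgb4 with 81.3%. From 90% to under 100%, 0 of 3 Pcdha, 0 of 5 Pcdhb and 6 of 13 Pcdhg genes were. Where every string was unique, 1 of 2 Pcdha, 1 of 10 Pcdhb and 2 of 4 Pcdhg genes were accessible. The part of uniqueness in the low count of the Pcdha genes was not tested.

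**Figure D4:**
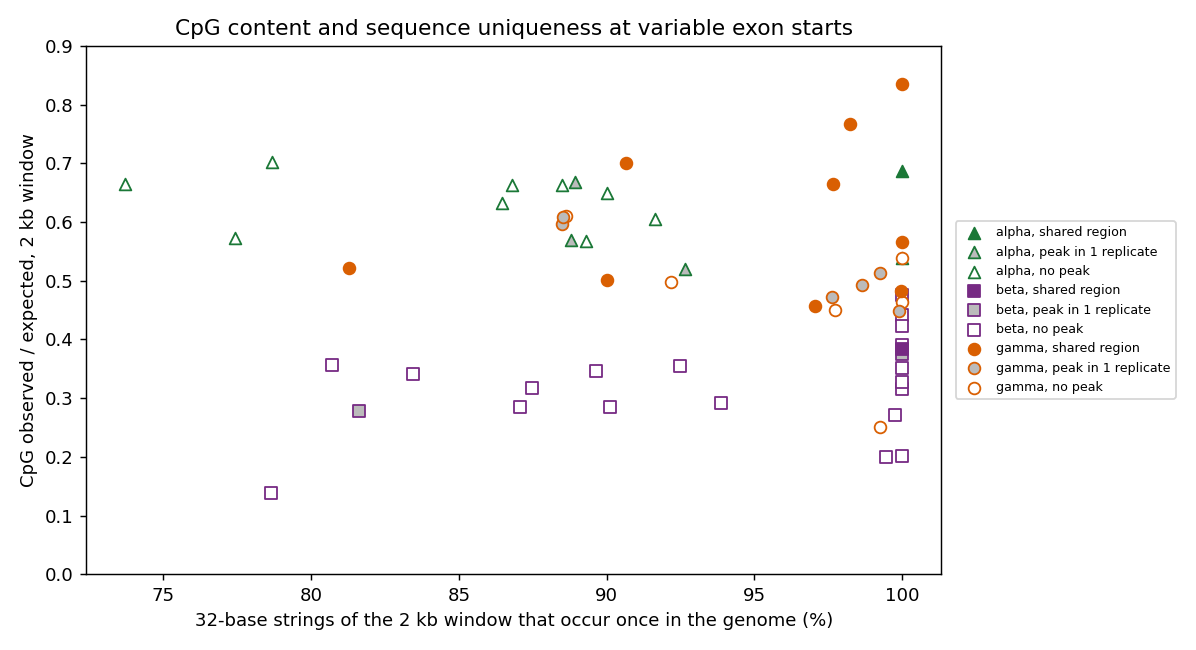
CpG observed over expected (vertical) against the percentage of 32-base strings that occur once in the genome (horizontal), both over the 2 kb around each variable exon start, with triangles for Pcdha, squares for Pcdhb and circles for Pcdhg genes. Filled symbols had a shared region, grey ones a peak in 1 replicate and open ones none; the open triangles of the numbered Pcdha genes lie at higher CpG ratios and lower uniqueness, that of Pcdhac1 lies at 100% uniqueness, and Pcdhb squares at low CpG ratios over the whole range of uniqueness.

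Other gene families gave a range of shares under the same rule. Of 12 non-clustered protocadherins, which are single genes scattered over the genome, 10 had a shared region at the start. The exceptions were Pcdh12, which had no peak, and Pcdh15, which had one in replicate 2 alone. Among them Pcdh17 ranked highest in both lists (102 in replicate 1, 103 in replicate 2) and Pcdh11x lowest (27 in replicate 1, 32 in replicate 2). Of the clustered families, a shared region lay at 13 of 39 Hox genes, 5 of 9 Ugt1a genes and 12 of 1135 olfactory receptor genes (1.06%). The 19.3% of clustered protocadherins lies between the shares of the olfactory receptor and Hox genes.

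**Figure D5:**
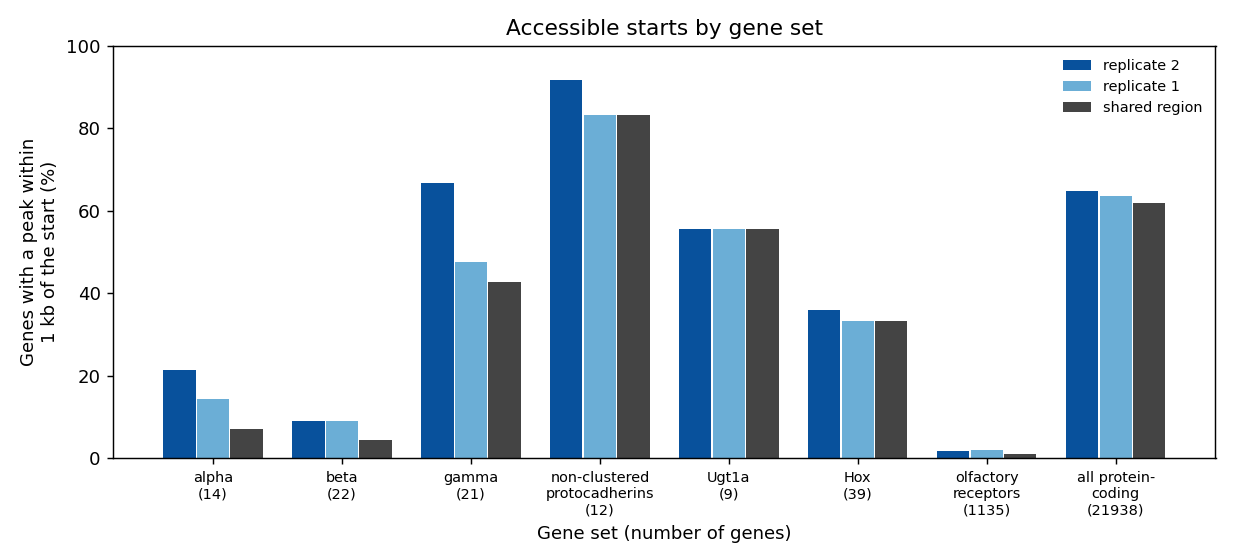
Percentage of genes with a peak within 1 kb of the start in replicate 2, in replicate 1 and as a shared region, for the 3 protocadherin clusters, other gene families and all protein-coding genes, with the number of genes in parentheses. The shared bar is 42.9% for the gamma cluster, 7.14% for alpha and 4.55% for beta, against 61.9% for all protein-coding genes.

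Genes for the proteins known to act on these clusters were nearly all accessible. Of 19 regulators, which include Ctcf, the cohesin genes Rad21, Smc1a and Smc3, the silencing factor Smchd1, the histone methyltransferase Setdb1 and the DNA methyltransferase Dnmt3b, 18 had a shared region at the start. Stag1, a cohesin subunit, had one only at another of its transcript starts. Smchd1 had a peak of signal 103 in replicate 1 and of 108 in replicate 2. Dnmt3b was weaker, at 51 in replicate 1 and 62 in replicate 2. All 12 genes for intracellular partners had a shared region. They include the kinase genes Ptk2 and Ptk2b, which the cytoplasmic tails inhibit, and members of the WAVE complex such as Cyfip1 and Nckap1. The share over all protein-coding genes, 61.9%, is the level to set beside these.

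The tissue label was checked against marker genes. Of 10 stomach epithelium markers 9 had a shared region at the start (90%), against 61.9% of all protein-coding genes, and Atp4a, the proton pump gene of acid-secreting cells, had one at another transcript start. Of 6 mesenchyme and muscle markers 4 had one (66.7%), a share near that of all genes, and Acta2 and Barx1 had a peak in 1 replicate each. Among the neuronal markers reported, Snap25, Syt1, Tubb3 and Uchl1 had a shared region at the start, and Elavl3, Elavl4 and Stmn2 had none. Elavl4 did have a peak in each replicate (37 in replicate 1, 50 in replicate 2), but these did not overlap. None of 5 glial markers had one at that start. Gfap had one at another transcript start, and Foxd3 had peaks in both replicates that did not overlap. Of 6 markers of brain neurons 3 had one (Camk2a, Gad2 and Slc17a7), which is 50%, and Gad1 had one at another transcript start. The contribution of any cell type to the accessible protocadherin starts was not tested.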

How the data were processed

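DNase-seq of stomach tissue was analysed from 2 libraries of 1 group, with the replicate numbers taken from the labels. Per the deposited file lists, peaks and hotspots were called on mm10 from each replicate's own filtered alignments. The aligner, the caller, its thresholds and the read depth were not given in the sources used here, so no counting interval could be given. Each peak, at most 150 bp wide, has a deposited signal, a whole number without a stated unit or scaling, used only to rank peaks within a list. Each hotspot has a deposited −log10 q value of at most 100. The labels name the instruments HiSeq 2500 and NextSeq 500 for replicate 2 and none for replicate 1.

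Peaks on the 19 autosomes, X and Y were kept. Peaks of the replicates that overlap by 1 bp or more were merged into 105543 shared regions. Each protein-coding gene of GENCODE M21 was given 1 start, and a region counted there when it overlapped the window of 1 kb on either side. A constant exon is one used by several members of a cluster. CpG content, CTCF matches and uniqueness of 32-base strings were computed from the GRCm38 genome. Values were computed in Python 3.11.15 with numpy 2.4.6 and pandas 2.3.3, and the overlap step was tested on simulated peaks. Members with a peak in either replicate are named, and those with a shared region get values in both replicates. Members without a peak are named only in part. No test was made, since there is 1 group. The members, lists and rules were chosen with earlier results of these data known, and the positions of CTCF matches within exons were added after seeing the data. Alternative windows, overlaps, lists and single replicates were tried. One neuronal marker of the list is not reported here.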

Additional observations from a re-analysis of the deposited data

How the results depend on the processing

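The same 11 members were accessible with windows of 250 bp, 500 bp and 2.5 kb and with 50% reciprocal overlap. They were also the same with hotspots, with the region centre required in the window, and with each region given to its nearest member start. The hotspot setting was not an independent check. Both kinds of interval come from the same alignments, and hotspots lay at as many member starts as peaks did (14 in replicate 1, 19 in replicate 2). With lists cut to equal length Pcdhb17 was lost, which left 10 members and 0 of the Pcdhb genes. With the stronger 50% of peaks 2 members remained, Pcdhgc3 and Pcdhgc4, so the count was 0 for Pcdha, 0 for Pcdhb and 2 for Pcdhg genes, while the share of all protein-coding genes was 54.6% and the span held 20 shared regions. That setting removes weak peaks by construction. The share of all genes was 56.3%, 59.0% and 66.3% with the 3 windows and 61.0% with reciprocal overlap. With 1 replicate left out, the count was 14 to 19 for all members, 2 to 3 for Pcdha, 2 in both cases for Pcdhb and 10 to 14 for Pcdhg genes. The share of all genes was then 63.6 to 64.8%, and the span held 43 to 58 peaks. Regions with a CTCF match numbered 2, and 1 with reciprocal overlap, the stronger 50% of peaks or equal lists. The counts over constant exons (1) and in the gaps (16 to 30) stayed within 1.5 times the reported ones. No paired analysis was possible because there is only 1 group. Depth is unknown, so weak sites such as those of the Pcdha genes may be missed in either replicate.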
